A study of Mus musculus with 2 samples.

Results

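Foxp3, Il2ra, Ikzf2, Ikzf4, Lrrc32, Gpr83, Capg and Ecm1 are 8 genes known as marks of the regulatory T cell, and they were followed here by name among the 31053 genes measured. They were described in leukocytes of the stomach of TxA23 mice, in subsets gated on raw marker counts and between IL-27 and PBS treatment. TxA23 mice carry a transgenic T cell receptor directed at a gastric self antigen and develop autoimmune gastritis. Both groups carried the transgene, were 3 months old when an osmotic pump was placed under the skin, and kept the pump for 4 weeks. The IL-27 pump held 800 ng of recombinant IL-27, a covalently linked p28-EBI3 protein, at 4 µg per mL in 200 µL. The PBS pump held the carrier. Each treatment was 1 library of pooled mice, made from 3 females given IL-27 and, given PBS, 1 female and 1 male. Live CD45+ cells flushed from the gastric mucosa, negative for propidium iodide, were captured with droplet 5' chemistry that counts unique molecular identifiers (UMIs).

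Regulatory T cells restrain other lymphocytes, and in autoimmune gastritis they hold back CD4 T cells that attack the acid-secreting epithelium. Foxp3 is the transcription factor that fixes their identity. Il2ra encodes CD25, the chain that gives the interleukin 2 receptor its high affinity, through which these cells depend on interleukin 2 made by other T cells. Ikzf2 (Helios) and Ikzf4 (Eos) are zinc finger factors of the Ikaros family, and Eos is a corepressor that binds Foxp3. Lrrc32 encodes GARP, which holds latent TGF-beta at the surface, and Gpr83 is a receptor coupled to G proteins. Capg caps actin filaments, and Ecm1 is a secreted glycoprotein.

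The 8 genes lie on 8 chromosomes of the mouse genome build GRCm38, per GENCODE M21, and all are protein coding. Foxp3 (ENSMUSG00000039521) spans chrX:7573644-7595245 on the plus strand, Il2ra (ENSMUSG00000026770) chr2:11642807-11693193 on the plus strand and Ecm1 (ENSMUSG00000028108) chr3:95734147-95739569 on the minus strand. Ikzf2 lies at chr1:69531214-69687245 and Ikzf4 at chr10:128630843-128645991, both on the minus strand. Lrrc32 lies at chr7:98489283-98502181, Gpr83 at chr9:14860210-14870789 and Capg at chr6:72544391-72562983, all on the plus strand. Foxp3 shares its span with 4 other annotated genes, among them Flicr on the same strand, and whether the counting used strand is not given in the sources used here.

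Promoter sequence from RefSeq (GRCm38.p6) was at hand for 5 of the 8 members, Foxp3, Il2ra, Gpr83, Capg and Ecm1, and not for Ikzf2, Ikzf4 and Lrrc32. The 250 bases upstream of the start site are shown for Foxp3, Il2ra and Ecm1. Foxp3 has an entry for each of 2 start sites. Il2ra and Ecm1 were at least 2-fold higher beside Foxp3 in both libraries, as was Capg, whose sequence is not shown. The sequences are written 5′ to 3′ on the gene's strand. Capitals mark matches to any of 4 motifs searched on both strands, namely TATAAA, the forkhead core TGTTTAC, the STAT palindrome TTCNNNGAA and the NFAT core GGAAAA.
Foxp3, start site 1, chrX:7579426-7579675, plus strand: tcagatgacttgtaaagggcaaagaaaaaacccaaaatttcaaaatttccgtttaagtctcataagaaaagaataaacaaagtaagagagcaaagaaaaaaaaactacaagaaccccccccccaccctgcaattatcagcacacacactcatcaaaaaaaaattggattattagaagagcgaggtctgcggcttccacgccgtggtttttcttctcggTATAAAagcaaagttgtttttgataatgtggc
Foxp3, start site 2, chrX:7580233-7580482, plus strand: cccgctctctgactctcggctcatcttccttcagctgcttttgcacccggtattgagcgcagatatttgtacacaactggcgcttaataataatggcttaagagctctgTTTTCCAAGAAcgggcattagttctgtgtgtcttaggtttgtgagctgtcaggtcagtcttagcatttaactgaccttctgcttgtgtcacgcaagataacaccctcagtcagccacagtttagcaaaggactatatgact
Il2ra, chr2:11642542-11642791, plus strand: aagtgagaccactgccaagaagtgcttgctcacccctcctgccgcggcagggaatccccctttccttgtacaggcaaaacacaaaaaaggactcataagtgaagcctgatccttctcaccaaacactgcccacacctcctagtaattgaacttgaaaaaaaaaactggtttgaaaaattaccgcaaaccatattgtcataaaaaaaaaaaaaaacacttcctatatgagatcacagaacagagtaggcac
Ecm1, chr3:95739570-95739819, minus strand: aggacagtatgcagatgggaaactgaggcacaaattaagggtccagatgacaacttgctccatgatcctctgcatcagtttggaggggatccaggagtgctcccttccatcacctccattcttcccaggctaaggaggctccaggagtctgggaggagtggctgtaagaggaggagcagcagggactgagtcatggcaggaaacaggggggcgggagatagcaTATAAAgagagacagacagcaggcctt
Foxp3 start site 1 held TATAAA with its first letter 32 bases upstream, and Ecm1 held it 27 bases upstream, a motif found in 12.4% of 32851 promoter windows of the same length. Foxp3 start site 2 held the NFAT core, on the opposite strand, 141 bases upstream and a STAT palindrome 139 bases upstream, and these matches overlap in the capitals shown. All windows together held the NFAT core in 20.4%, the STAT palindrome in 7.02% and the forkhead core in 3.17%. The windows of Il2ra, Gpr83 and Capg held none of the 4 motifs, which says only that these letters are absent from these 250 bases.

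The IL-27 library held 20579 cells and the PBS library 11793 cells after filtering, with median depths of 3079 and 2958 UMIs per cell. By the suffix of their barcodes the cells came from 3 IL-27 and 2 PBS wells, and the labels do not say that a well is a mouse. PBS well 2 carried all 3074 UMIs of 4 Y-linked genes, so male cells were in that well. Treatment and library cannot be told apart, and leaving out PBS well 2 leaves females in both. The libraries shared 355 cell barcode sequences. With 1 library per treatment no test was possible, and every interval below is an exact 95% interval of counting error only. Values are CPM, UMIs per 1000000 UMIs of the gate.

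CD4 T cells needed 2 UMIs of the Cd3 chains and 1 of Cd4, with none of Cd8a, Cd8b1 or Trdc and at most 1 of B cell and 1 of myeloid gate genes, and at least 1 Foxp3 UMI made a cell Foxp3+. That gave 237 Foxp3+ and 1915 Foxp3- CD4 T cells in the IL-27 library and 102 Foxp3+ and 609 Foxp3- in the PBS library. Of the Foxp3+ cells, 145 in IL-27 and 61 in PBS had just 1 Foxp3 UMI. A Foxp3- cell is thus a cell without a Foxp3 UMI, and how many had Foxp3 RNA that was missed was not tested. Median depth in the IL-27 library was 3407 UMIs in Foxp3+ and 3740 in Foxp3- cells, and in the PBS library 3401.5 in Foxp3+ and 3741 in Foxp3- cells. The T cell markers Trac, Trbc2, Lck and Cd5, which the gate did not use, summed to 2641 CPM in Foxp3+ cells of the IL-27 library and 2783 CPM in those of the PBS library, with all 4 detected. The erythroid markers were at 0 in the same cells of both libraries. Markers of some other cell types were higher in Foxp3+ cells of the PBS library. Those of B cells (5.31 CPM in IL-27 and 4.05 CPM in PBS) and natural killer cells (23.0 and 18.2 CPM) were not. Macrophage markers summed to 3.54 CPM in the IL-27 library and 358 CPM in the PBS library, dendritic cell markers to 229 and 1212 CPM, gastric epithelium markers to 12.4 and 261 CPM and mast cell markers to 0 and 80.9 CPM. In the PBS library 4 of the 102 cells carried 20 or more such UMIs. Without them the PBS sums were 6.71, 320, 17.9 and 2.24 CPM, and each member count given below was as large without these cells.

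Most Foxp3 UMIs lay in gated T cells. Foxp3+ CD4 T cells had 349 CPM in the IL-27 library and 348 CPM in the PBS library, levels that the gate itself sets. The library totals were 1181 Foxp3 UMIs for IL-27 and 576 for PBS. The CD4 gate held 33.4% of these UMIs in IL-27 and 29.9% in PBS. A further 41.0% and 39.8% lay in T cells without a UMI of Cd4, Cd8a, Cd8b1 or Trdc, a subset added after the data were seen, and 17.4% and 23.4% in ungated cells. CD8 T cells held 5.33% and 3.47%. T cells with a Trdc UMI, called Trdc+ T cells here because Trac was also at 261 CPM in the IL-27 and 229 CPM in the PBS library, held 1.78% and 1.22%.

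Cells with a Foxp3 UMI were 2.51% of CD8 T cells in the IL-27 and 2.27% in the PBS library, at median depths of 5537 and 5107 UMIs. In B cells, which should lack the gene, they were 0.130% of 10764 cells in the IL-27 and 0.131% of 7622 cells in the PBS library, at median depths of 2814 and 2782 UMIs. Those B cell shares, 0.422 CPM in IL-27 and 0.436 CPM in PBS, are read as background. The B cell gate allowed no UMI of the Cd3 chains, which leaves out B cells where stray T cell RNA showed in those genes. Whether this background holds for the T cell gates was not tested. No Foxp3 UMI was seen in 184 IL-27 and 272 PBS natural killer (NK) cells, which allows up to 5.32 CPM and 3.37 CPM at a floor of 3 UMIs. Group 2 innate lymphoid cells (ILC2) and neutrophils were also at 0 in both libraries.

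**Figure D1:**
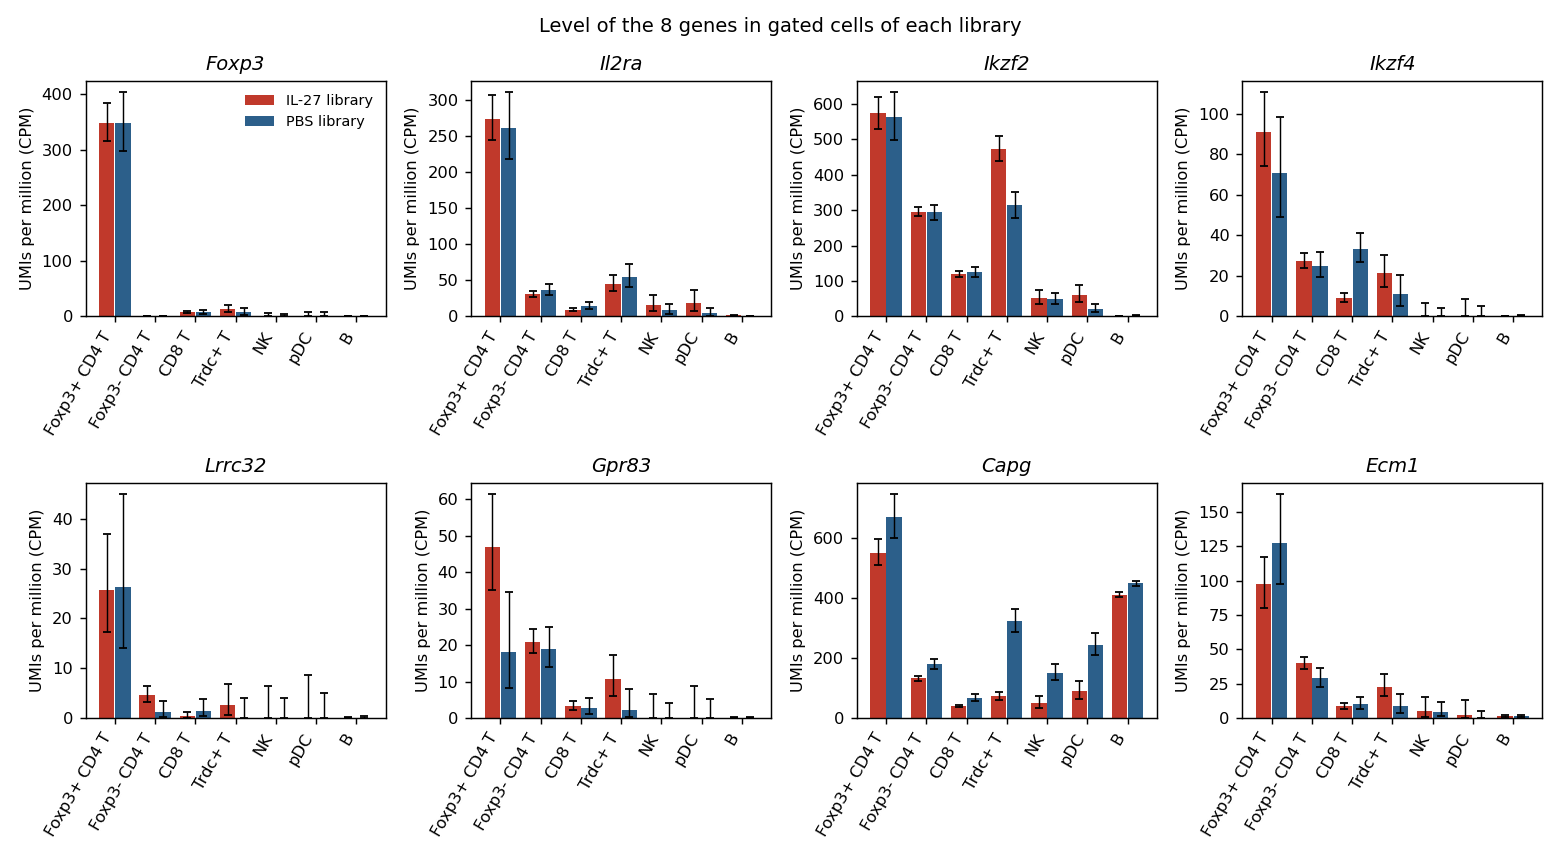
Level of each of the 8 genes in CPM (vertical axis, linear, from 0) in 7 gated subsets with at least 50 cells per library, IL-27 bars left of PBS bars, with exact 95% Poisson intervals. Foxp3+ CD4 T cells have the highest bar for every gene but Gpr83 in the PBS library, and Capg is also high in B cells, at 411 CPM in IL-27 and 448 CPM in PBS. The Foxp3 bar of Foxp3+ and Foxp3- cells is set by the gate.

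Among CD4 T cells, 5 of the 7 genes other than Foxp3 were at least 2-fold higher in Foxp3+ than in Foxp3- cells in both libraries: Il2ra, Ikzf4, Lrrc32, Capg and Ecm1. Over the 7904 genes past the filter on low values, 2.64% were higher by the same rule and 3.71% were called in either direction. Ikzf2 lay just short of 2-fold and Gpr83 passed it in the IL-27 library only. The filter asks for 10 CPM in the higher gate and 20 UMIs in all, and Lrrc32 passed it only through Foxp3+ cells, so it had to differ. Of the 6 genes that also had 10 CPM in Foxp3- cells of both libraries, 4 were higher, against 1.56% of 6872 such genes. The median log2 ratio of those 6 genes was 1.51 in IL-27 and 1.70 in PBS, against 0.03 and 0.06 over the same 6872 genes. With at least 2 Cd4 UMIs asked of a cell the count was 3 of 7, and the share of all genes under that setting is not given here.

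Il2ra, the receptor chain for interleukin 2, had the largest ratio of the 7 genes in the IL-27 library. It had 274 CPM in Foxp3+ and 30.9 CPM in Foxp3- cells of the IL-27 library, a ratio of 8.86 (interval 7.48 to 10.5). In the PBS library it had 261 CPM in Foxp3+ and 36.9 CPM in Foxp3- cells, a ratio of 7.06 (5.38 to 9.30). The ratio was above 4 in each of the 5 wells, from 4.73 in PBS well 1 to 16.6 in IL-27 well 2. In IL-27 well 2, 1 cell carried 65 of the 167 Il2ra UMIs of Foxp3+ cells. Il2ra was the 9th of 4380 genes ranked by the lesser of the libraries' ratios. An Il2ra UMI was found in 38% of Foxp3+ and 6.84% of Foxp3- cells of the IL-27 library, and in 43.1% of Foxp3+ and 7.22% of Foxp3- cells of the PBS library.

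The Ikaros family members differed from each other. Ikzf4 (Eos) had 91.2 CPM in Foxp3+ and 27.6 CPM in Foxp3- cells of the IL-27 library, a ratio of 3.31 (2.59 to 4.19), and 70.8 CPM in Foxp3+ and 25 CPM in Foxp3- cells of the PBS library, a ratio of 2.83 (1.82 to 4.33). Ikzf2 (Helios) was broad, with 573 CPM in Foxp3+ and 296 CPM in Foxp3- cells of the IL-27 library and 562 CPM in Foxp3+ and 294 CPM in Foxp3- cells of the PBS library. Its ratios were 1.94 (1.77 to 2.11) and 1.91 (1.66 to 2.20), so it was higher in Foxp3+ cells without reaching 2-fold. An Ikzf2 UMI was present in 43.3% of Foxp3- cells in the IL-27 and 42.5% in the PBS library. Ikzf1 (Ikaros) ran the other way, with 83.3 CPM in Foxp3+ and 179 CPM in Foxp3- cells of the IL-27 library and 78.9 CPM in Foxp3+ and 159 CPM in Foxp3- cells of the PBS library. Ikzf3 and Ikzf5 stayed within 2-fold in both libraries.

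The surface molecules Lrrc32 and Gpr83 were sparse. Lrrc32 had 29 UMIs in Foxp3+ and 38 in Foxp3- cells of the IL-27 library, which is 25.7 and 4.64 CPM and a ratio of 5.54 (3.29 to 9.22). In the PBS library it had 13 UMIs in Foxp3+ and 3 in Foxp3- cells, 26.3 and 1.15 CPM, and the ratio of 22.8 has an interval of 6.26 to 125. Lrrc32 was higher in Foxp3+ cells in each of the 5 wells. Gpr83 had 46.9 CPM in Foxp3+ and 21 CPM in Foxp3- cells of the IL-27 library, a ratio of 2.24 (1.61 to 3.06). In the PBS library it had 18.2 CPM, from 9 UMIs, in Foxp3+ and 18.9 CPM in Foxp3- cells, a ratio of 0.965 (0.417 to 1.99). Gpr83 was higher in Foxp3+ cells in 4 of 5 wells, the exception being PBS well 2 at 0.453.

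Capg, the actin capping protein, had 551 CPM in Foxp3+ and 132 CPM in Foxp3- cells of the IL-27 library, a ratio of 4.17 (3.77 to 4.60). In the PBS library it had 670 CPM in Foxp3+ and 179 CPM in Foxp3- cells, a ratio of 3.75 (3.25 to 4.33). Ecm1, the secreted glycoprotein, had 97.4 CPM in Foxp3+ and 39.9 CPM in Foxp3- cells of the IL-27 library, a ratio of 2.44 (1.95 to 3.04), and 127 CPM in Foxp3+ and 28.9 CPM in Foxp3- cells of the PBS library, a ratio of 4.41 (3.11 to 6.25). Both were higher in Foxp3+ cells in 5 of 5 wells, though Ecm1 reached only 1.14 in IL-27 well 2. Ranks among the 4380 genes were 27 for Capg, 46 for Ikzf4, 62 for Ecm1 and 120 for Ikzf2. The ranking asked for 30 CPM in the higher gate of each library. Ikzf4 was under that in Foxp3- cells of both libraries and Ecm1 in those of PBS. Both genes thus entered it only through Foxp3+ cells.

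**Figure D2:**
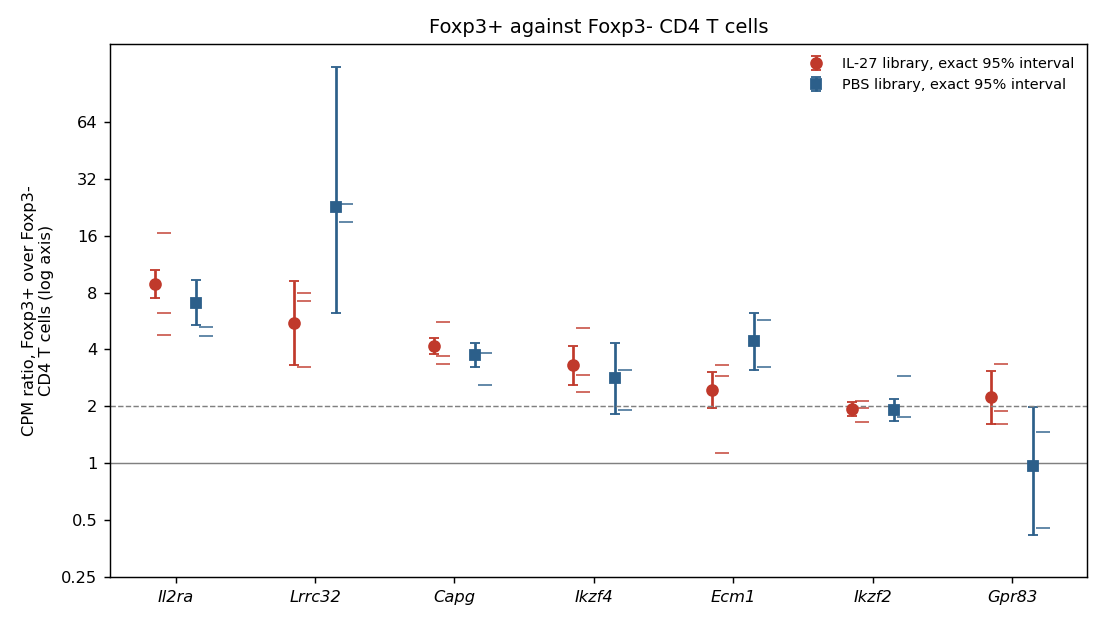
Ratio of CPM in Foxp3+ over Foxp3- CD4 T cells (log axis) for the 7 genes other than Foxp3, IL-27 library left of PBS library, with exact 95% intervals and short bars for single wells. The solid line is a ratio of 1 and the dashed line the 2-fold mark, and Il2ra lies at 8.86 in IL-27 and 7.06 in PBS while the Gpr83 interval of the PBS library spans 1.

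T cells without a coreceptor UMI were also added to both sides, a choice made after the data were seen, which brought the Foxp3+ cells to 524 in the IL-27 and 239 in the PBS library. Ikzf2 then just passed 2-fold too, at 2.0 (1.88 to 2.13) in the IL-27 and 2.38 (2.17 to 2.62) in the PBS library. So 6 of 7 genes did, against 2.84% of all genes. Lrrc32 again passed the filter only through Foxp3+ cells. Of the 6 genes that also had 10 CPM in Foxp3- cells, 5 were higher, against 1.60% of 7113 such genes. Lrrc32 in PBS was at 10.6 (5.16 to 23.0) in this gate, against 22.8 in CD4 T cells. Gpr83 had a ratio of 2.67 (2.16 to 3.30) in the IL-27 and 1.74 (1.08 to 2.72) in the PBS library, where it was 0.965 in CD4 T cells.

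The genes were often found together. Of CD4 T cells with a UMI of at least 2 of Il2ra, Ikzf2, Ikzf4, Lrrc32 and Gpr83, 35.5% (30.4 to 40.8) had a Foxp3 UMI in IL-27 and 46.7% (37.5 to 56.0) in PBS. With a UMI of just 1 of these genes the share was 9.56% in IL-27 and 12.4% in PBS, and with none 3.40% and 3.56%. Median depth moved with the number of genes, at 3870, 3727 and 3640 UMIs per cell in the IL-27 library and 4044.5, 3861.5 and 3501 in the PBS library for 2 or more, 1 and 0 genes, and its part was not tested. The Foxp3 level followed the same order, at 138, 33.7 and 11.1 CPM in IL-27 and 170, 40.3 and 13.6 CPM in PBS.

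The share of Foxp3+ cells was also read gene by gene. Of CD4 T cells with an Il2ra UMI, 40.7% were Foxp3+ in the IL-27 and 50% in the PBS library, against 7.61% and 9.31% of those without. Of cells with an Ikzf2 UMI, 17.6% were Foxp3+ in IL-27 and 24.3% in PBS, against 5.24% and 5.15% without. Lrrc32 marked few cells, 47 in IL-27 and 10 in PBS, of which 23 and 7 were Foxp3+. For Gpr83 the shares with and without a UMI were 22.7% and 10.1% in the IL-27 library and 13.3% and 14.4% in the PBS library, where 45 cells had a UMI.

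A Foxp3+ cell held a UMI of 2.64 of the other 7 genes on average in the IL-27 and 2.72 in the PBS library, and a Foxp3- cell 1.09 and 1.06. At least 3 of the 7 were seen in 48.1% of Foxp3+ and 7.62% of Foxp3- cells of the IL-27 library, and in 53.9% of Foxp3+ and 8.54% of Foxp3- cells of the PBS library. Those Foxp3- cells with 3 or more numbered 146 in the IL-27 and 52 in the PBS library, and whether Foxp3 RNA was missed in them was not tested.

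Within Foxp3+ cells, Il2ra and Capg were higher where Foxp3 had 2 or more UMIs than where it had 1. Il2ra was at 436 CPM with 2 or more and 154 CPM with 1 in the IL-27 library, and at 390 and 152 CPM in the PBS library. Capg was at 791 and 374 CPM in the IL-27 and 843 and 524 CPM in the PBS library, with intervals that did not overlap for either gene in either library. Intervals overlapped for Ikzf4, Lrrc32, Gpr83, Ecm1 and Ikzf2, and Ikzf2 lay higher with 2 or more UMIs in IL-27 (599 and 554 CPM) and lower in PBS (483 and 629 CPM). Median depth was 3825.5 and 3333 UMIs with 2 or more and with 1 in the IL-27 library and 3501 and 3254 in the PBS library, and its part in the result was not tested. Cells were pooled over wells, and IL-27 well 2 and PBS well 2 had the highest Foxp3, Il2ra and Capg levels of their library. The part of wells was not tested either. In the IL-27 library 1 Foxp3+ cell held 65 of the 309 Il2ra UMIs, a clumping that the intervals do not hold.

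**Figure D3:**
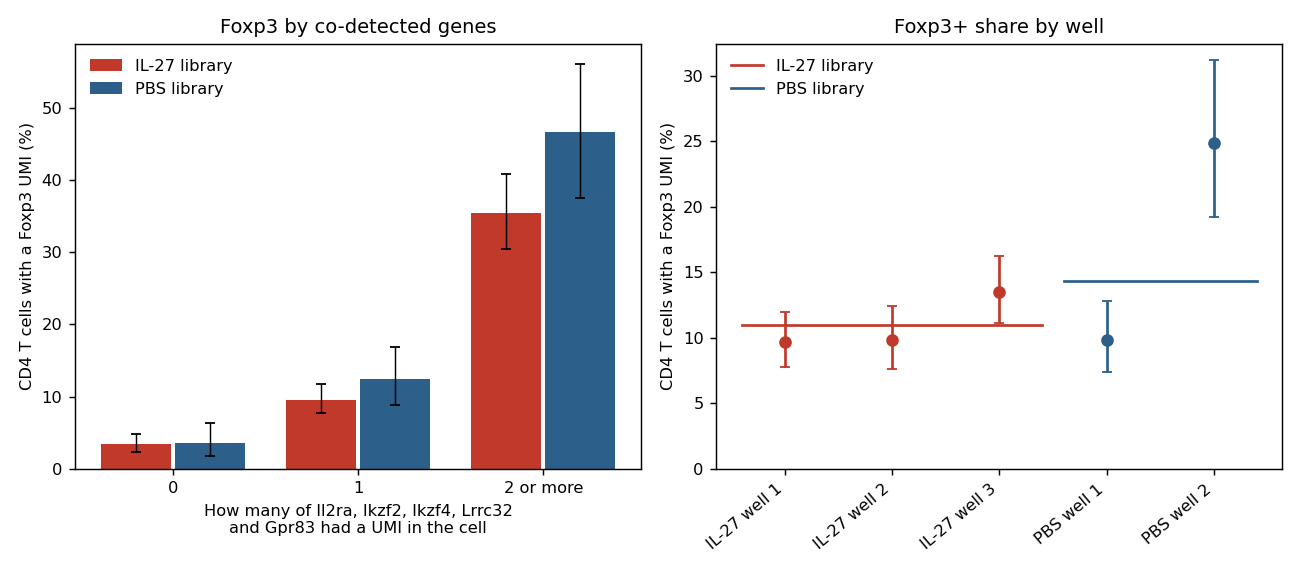
Left, percent of CD4 T cells with a Foxp3 UMI by how many of Il2ra, Ikzf2, Ikzf4, Lrrc32 and Gpr83 had a UMI in the cell, IL-27 bars left of PBS bars, with exact 95% binomial intervals. Right, the same percent of all CD4 T cells by well, with horizontal lines at the library values of 11% in IL-27 and 14.3% in PBS, and PBS well 2 at 24.9% above the other 4 wells.

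Other genes of the regulatory program were read from lists, with the same 2-fold rule in both libraries. Of 9 genes of the interleukin 2 receptor and its signal, 3 were higher in Foxp3+ cells and none lower. Over all genes past the filter, 2.64% were higher and 1.06% lower by this rule. These were the feedback inhibitors Socs2, at 125 CPM in Foxp3+ and 17.1 CPM in Foxp3- cells of the IL-27 and 142 and 21.6 CPM of the PBS library, Cish (ratios 3.08 in IL-27 and 4.12 in PBS) and Socs1 (2.16 and 2.34). The other receptor chains did not pass, with Il2rb at 2.02 in IL-27 and 1.95 in PBS and Il2rg at 1.09 and 0.932, and neither did Jak1, Jak3, Stat5a and Stat5b, at 0.861 to 1.2. The list's median log2 ratio was 0.13 in the IL-27 and 0.26 in the PBS library.

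Of 15 partners and competitors of Foxp3 among transcription factors, 2 were higher and 5 lower in Foxp3+ cells. By the rule 2.64% of all genes were higher and 1.06% lower. The higher ones were Prdm1 (Blimp-1), at 29.2 CPM in Foxp3+ and 2.93 CPM in Foxp3- cells of the IL-27 and 40.5 and 9.24 CPM of the PBS library, and Batf (ratios 2.81 in IL-27 and 2.08 in PBS). Prdm1 passed the filter only through Foxp3+ cells. The lower ones were Ikzf1, Satb1, Foxp1 and the naive T cell factors Tcf7 and Lef1, with Tcf7 at 192 CPM in Foxp3+ and 507 CPM in Foxp3- cells of the IL-27 and 150 and 478 CPM of the PBS library. Runx1, Cbfb, Nfatc2, Ikzf3, Irf4, Foxo1, Gata3 and Bach2 did not pass.

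Of 20 surface genes, 13 were higher and none lower, against 2.64% and 1.06% of all genes. Klrg1, an inhibitory lectin-like receptor, had a ratio of 17.6 in IL-27 and 9.64 in PBS, Itgae (CD103) 10.6 and 5.90, Ctla4 4.27 and 4.56, and Tnfrsf4 (OX40) 4.21 and 4.35. In Foxp3- cells Klrg1 had 9.15 CPM in IL-27 and 9.24 CPM in PBS, so it passed the filter only through Foxp3+ cells. Lag3, Pdcd1, Izumo1r, Tnfrsf9, Ccr4, Entpd1 and Nt5e did not pass, with Izumo1r at 909 CPM in Foxp3+ and 939 CPM in Foxp3- cells of the IL-27 library. The list's median log2 ratio was 1.65 in IL-27 and 1.59 in PBS.

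Of 9 suppressor genes, 5 passed the filter on low values and 4 of those were higher, against 2.64% of all genes. These were Ebi3, the chain shared by IL-27 and IL-35, Itgb8, which activates latent TGF-beta, Fgl2 and Penk. In the PBS library Ebi3 reached 10 CPM only in Foxp3+ cells, with 6.16 CPM in Foxp3- cells. Tgfb1 had ratios of 1.13 in IL-27 and 1.21 in PBS. Of 11 genes usually low in regulatory T cells, 8 passed the filter and 5 were lower, against 1.06% of all genes: Cd40lg, Pde3b, Dapl1, Igfbp4 and Ifng. In Foxp3+ cells Dapl1 had 3.54 CPM in IL-27 and 2.02 CPM in PBS. It thus passed the filter only through Foxp3- cells and had to differ. Igfbp4 had 34.5 CPM in Foxp3+ and 292 CPM in Foxp3- cells of the IL-27 and 22.3 and 237 CPM of the PBS library. Il7r was not lower, with ratios of 1.25 in IL-27 and 1.97 in PBS.

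Among all ranked genes, the 20 highest in Foxp3+ cells were Flicr, Serpina3i, Klrg1, Rln3, Selenom, Sccpdh, Ly6a, Serpina3g, Il2ra, Neb, Ccr2, Socs2, Itgae, Ttn, Hopx, Ebi3, Pim1, Arl5a, Gbp3 and Il1r2. The ranking asked for 30 CPM in the higher gate only. Flicr, Klrg1, Selenom, Sccpdh, Serpina3g and Ttn were under 10 CPM in Foxp3- cells of both libraries. They entered only through Foxp3+ cells and had to differ. Flicr had 88.6 CPM in Foxp3+ and 6.71 CPM in Foxp3- cells of the IL-27 and 125 and 7.31 CPM of the PBS library, and since it overlaps Foxp3 its count and that of Foxp3, which defines the gate, may share reads. Rln3, a relaxin family hormone, had 158 CPM in Foxp3+ and 17.2 CPM in Foxp3- cells of the IL-27 and 152 and 6.93 CPM of the PBS library. The 10 lowest were Dapl1, Igfbp4, Nrgn, Cxxc5, Cd40lg, Rgcc, Sox4, Slc29a1, Ccl5 and Itm2a. Of these, Dapl1 and Cxxc5 were under 10 CPM in Foxp3+ cells of both libraries and entered only through Foxp3- cells.

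**Figure D4:**
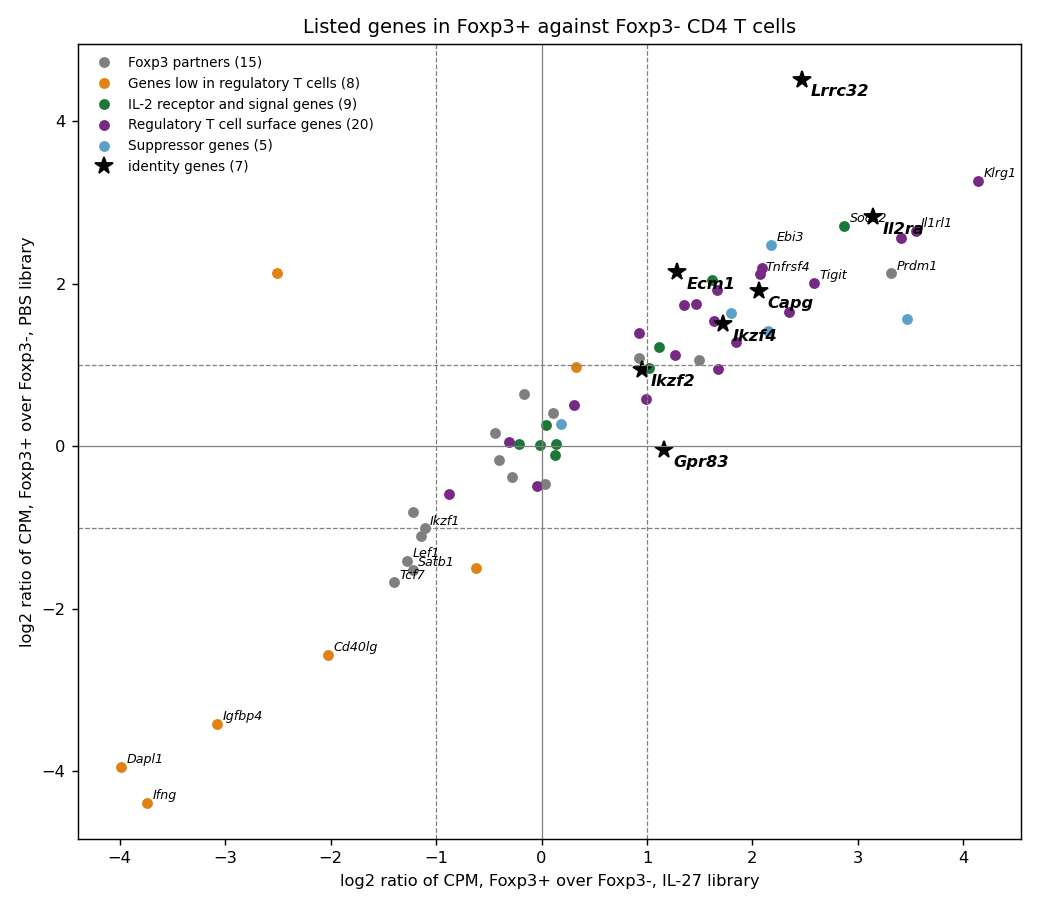
Log2 ratio of CPM in Foxp3+ over Foxp3- CD4 T cells in the IL-27 library (horizontal axis) and the PBS library (vertical axis) for listed genes past the filter, coloured by list, with stars for the 7 genes other than Foxp3 and dashed lines at 2-fold. Il2ra (3.15 in IL-27 and 2.82 in PBS) lies near Klrg1 and Socs2 at the upper right, and Gpr83 (1.16 in IL-27 and -0.051 in PBS) lies off the others.

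Outside CD4 T cells the 8 genes went separate ways. Ikzf2 was high in Trdc+ T cells, at 473 CPM in the IL-27 and 314 CPM in the PBS library, second to Foxp3+ CD4 T cells among the 7 subsets with at least 50 cells in each library, and its PBS interval overlapped that of Foxp3- CD4 T cells. It reached 120 CPM in IL-27 and 124 CPM in PBS CD8 T cells. Mast cells, which numbered 90 in PBS with 89 of them in well 2, had 227 CPM of Ikzf2 and 54.8 CPM of Ikzf4.

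Capg was not a T cell gene alone. B cells had 411 CPM in the IL-27 and 448 CPM in the PBS library, with a UMI in 62.7% and 64.8% of cells, and among the same 7 subsets this was the next level below Foxp3+ CD4 T cells in both libraries. Lrrc32 and Gpr83 had no UMI in NK cells and plasmacytoid dendritic cells of either library, and at most 0.151 CPM in B cells. Ikzf4 likewise had no UMI in NK cells and plasmacytoid dendritic cells. Ecm1 was highest in Foxp3+ and next in Foxp3- CD4 T cells among these 7 subsets, with at most 5.32 CPM in NK and 1.57 CPM in B cells. For Il2ra, Trdc+ T cells (44.9 CPM in IL-27 and 55.0 CPM in PBS) and Foxp3- CD4 T cells had intervals that overlapped in both libraries. ILC2 also held Il2ra, at 433 CPM (336 to 549) in 35 IL-27 cells and 116 CPM (69.6 to 181) in 32 PBS cells.

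By Pearson r of log2(CPM + 1) over 14 points, the 7 subsets in each library, Ikzf4 was most like Galm (0.980), then Ctla4 and Msi2. Ikzf2 was most like Pigx (0.979), Lrrc32 like Rragd (0.975), Gpr83 like Ccr4 (0.973), Ecm1 like Msl3l2 (0.950), Il2ra like Kif3b (0.934) and Capg like Anxa4 (0.917). The next closest genes were Znrf1 and Smco4 for Ikzf2, Flicr and Wnt3 for Lrrc32, Galm and Fam216a for Gpr83, Ctla4 and Trp53inp1 for Ecm1, Mrpl32 and Aebp2 for Il2ra, and Mafg and Ralgds for Capg. These are descriptions over 7973 candidate genes, and the points share libraries.

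Between treatments, the Foxp3+ share of CD4 T cells was 11% (9.72 to 12.4, 237 of 2152) in the IL-27 and 14.3% (11.9 to 17.1, 102 of 711) in the PBS library, a ratio of 0.768 (0.606 to 0.978). By well the share was 9.70%, 9.86% and 13.5% in IL-27 and 9.84% and 24.9% in PBS. PBS well 1 lay among the IL-27 wells and PBS well 2 above them all. The ratio became 1.12 with PBS well 2 left out and 0.443 with PBS well 1 left out, so the direction turned on that well. With cells thinned to 1000 UMIs the shares were 4.27% in IL-27 and 6.21% in PBS, leaving out 42 IL-27 and 19 PBS cells that were shallower.

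In Foxp3+ CD4 T cells, 1 of the 8 genes, Gpr83, differed at least 1.5-fold between the libraries. The same was true, in either direction, of 19.6% of the 7377 genes past the filter, so a count of 1 in 8 is near the background and is no result about these genes as a group. The count was 4 without PBS well 1, 2 without PBS well 2 and 2 without IL-27 well 3, where 30.8%, 27.8% and 20.5% of all genes passed 1.5-fold. Gpr83 had 46.9 CPM in the IL-27 and 18.2 CPM in the PBS library, a ratio of 2.58 (1.26 to 5.95). By well Gpr83 had 66.4, 35.0 and 40.9 CPM in IL-27 and 32.5 and 4.03 CPM in PBS. All IL-27 wells were above both PBS wells, as an order in either direction was for 20.8% of genes, but PBS well 1 was close to IL-27 well 2, and the ratio over PBS well 1 alone was 1.44. With T cells lacking a coreceptor UMI included, Gpr83 had 60.8 CPM in IL-27 and 30.5 CPM in PBS, a ratio of 1.99 (1.31 to 3.14), against 15.2% of genes past 1.5-fold in the Foxp3+ and 3.05% in the Foxp3- cells of that wider gate.

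In the CD4 gate Il2ra was close between the libraries, at 274 CPM in IL-27 and 261 CPM in PBS, a ratio of 1.05 (0.851 to 1.30). In IL-27, 1 cell held 65 of its 309 UMIs. With T cells lacking a coreceptor UMI included, Il2ra had 294 CPM in IL-27 and 354 CPM in PBS. That ratio was 0.830 (0.723 to 0.955), so the direction depended on the gate. In the CD4 gate it also differed between wells within each library. The IL-27 wells had 139, 487 and 214 CPM and the PBS wells 106 and 415 CPM, so IL-27 well 2 and PBS well 2 were high and the ranges overlapped. Capg had 551 CPM in IL-27 and 670 CPM in PBS, a ratio of 0.823 (0.719 to 0.943), with wells at 419, 668 and 564 CPM in IL-27 and 488 and 849 CPM in PBS, which overlap. Ecm1 had wells at 101, 52.5 and 130 CPM in IL-27 and 93.5 and 161 CPM in PBS and a ratio of 0.765 (0.556 to 1.06).

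Ikzf2 had 573 CPM in IL-27 and 562 CPM in PBS, a ratio of 1.02 (0.884 to 1.18), and its 5 wells lay between 485 and 618 CPM. Ikzf4 had a ratio of 1.29 (0.870 to 1.95) and Lrrc32 of 0.977 (0.492 to 2.05), with overlapping wells. The interval of Ikzf2 excludes a 1.5-fold difference in either direction as far as counting error goes, and those of Ikzf4 and Lrrc32 do not. Foxp3 itself, which the gate requires, had a ratio of 1.00 (0.836 to 1.21).

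**Figure D5:**
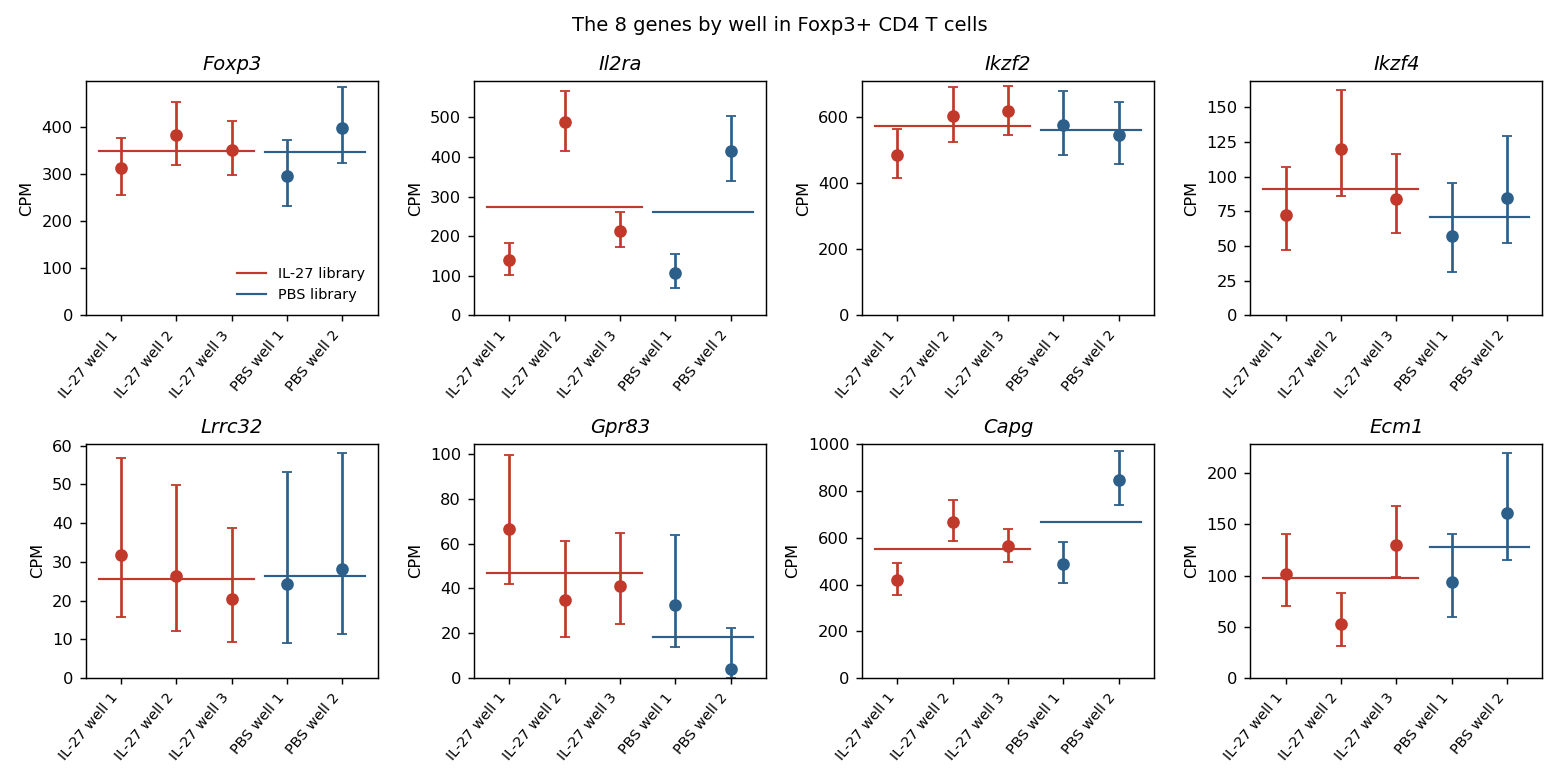
CPM of each gene in Foxp3+ CD4 T cells by well (linear axes from 0), IL-27 wells left of PBS wells, with exact 95% Poisson intervals and lines at the library values. Gpr83 lies at 66.4, 35.0 and 40.9 CPM in IL-27 and 32.5 and 4.03 CPM in PBS, and Il2ra is high in IL-27 well 2 and PBS well 2.

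In Foxp3- CD4 T cells none of the 7 genes differed 1.5-fold among the 6 past the filter, against 3.91% of 7946 genes. The count was 5 without PBS well 1, 1 without PBS well 2 and 1 without IL-27 well 1, where 22.4%, 5.39% and 5.30% of all genes passed 1.5-fold. Ecm1 came closest upward, at 39.9 CPM in IL-27 and 28.9 CPM in PBS, a ratio of 1.38 (1.07 to 1.80), with wells at 30.5, 46.2 and 44.7 CPM in IL-27 and 29.1 and 28.1 CPM in PBS. Every IL-27 well was above both PBS wells, though IL-27 well 1 was close to them, and 21.6% of genes had wells that did not overlap. Capg had 132 CPM in IL-27 and 179 CPM in PBS, a ratio of 0.740 (0.663 to 0.827), and the gap lay in PBS well 2, at 326 CPM against 127 CPM in PBS well 1 and 119 to 153 CPM in the IL-27 wells. Lrrc32, at 4.64 CPM in IL-27 and 1.15 CPM in PBS, was under the filter.

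PBS well 2 stood apart in other subsets as well. In CD8 T cells Ikzf4 had 9.22 CPM in IL-27 and 33.4 CPM in PBS, a ratio of 0.276 (0.201 to 0.380), but PBS well 2 had 83.8 CPM and PBS well 1 6.48 CPM, beside 5.68 to 12.7 CPM in the IL-27 wells. CD8 T cells of the PBS library also had Tcrg-C1 and Tcrg-C4 at a sum of 89.4 CPM, against 9.34 CPM in the IL-27 library, and the part of that in the result was not tested.

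In Trdc+ T cells Capg had 72.5 CPM in IL-27 and 324 CPM in PBS, a ratio of 0.224 (0.178 to 0.280), and all IL-27 wells (58.5 to 99.8 CPM) were below PBS well 1 at 135 CPM and PBS well 2 at 449 CPM. Ikzf2 had 473 CPM in IL-27 and 314 CPM in PBS in these cells, a ratio of 1.51 (1.31 to 1.74), with IL-27 wells at 516, 348 and 530 CPM and PBS wells at 292 and 328 CPM. In this subset 24.9% of all genes had wells that did not overlap. Capg was lower in all IL-27 wells in NK cells too, at 60.1, 67.5 and 14.0 CPM in the IL-27 and 121 and 162 CPM in the PBS wells, in a subset where 19.1% of genes had wells that did not overlap. In plasmacytoid dendritic cells it had 75.3, 89.7 and 108 CPM in the IL-27 and 191 and 249.2 CPM in the PBS wells, where that share was 19.5% and median depth was 5948.5 UMIs in IL-27 and 8073 in PBS.

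Among the listed genes in Foxp3+ cells, surface genes were higher in the IL-27 library for 2 of 20 and lower for 4, against 9.56% and 10.1% of all genes. Klrg1 had 161 CPM in IL-27 and 89.0 CPM in PBS and Il1rl1 25.7 and 12.1 CPM, while Tigit, Pdcd1 and Ccr8 were among those lower. Pdcd1 had 91.2 CPM in IL-27 and 198 CPM in PBS, and PBS well 2 had the highest well value, 282 CPM. Of the 5 suppressor genes past the filter, Itgb8 and Penk were lower and Ebi3 was higher, at 74.4 CPM in IL-27 and 34.4 CPM in PBS, a ratio of 2.16 (1.27 to 3.89). By well it had 66.4, 75.8 and 79.5 CPM in IL-27 and 40.7 and 28.2 CPM in PBS, the latter from 17 UMIs in all. In this gate 20.8% of genes had wells that did not overlap. In Foxp3- cells 5 suppressor genes passed the filter. Ebi3 was the 1 higher in IL-27 and 3 were lower, against 1.79% and 2.13% of all genes by 1.5-fold. The median log2 ratio of these suppressor genes was -0.94. Of 18 surface genes past the filter there, 0 were higher and 5 lower. Ebi3 had 16.5 CPM in IL-27 and 6.16 CPM, from 16 UMIs, in PBS. Ebi3 passed the filter there only through the IL-27 library. All IL-27 wells were again above both PBS wells, in a gate where 21.6% of genes had wells that did not overlap. None of the 9 interleukin 2 receptor and signal genes passed 1.5-fold in either gate.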

How the data were processed

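Counts are whole-number UMI counts per gene and cell, deposited by the authors as 1 filtered matrix per treatment. Cell Ranger 3.0.0 and mm10 are named per the submitters' processing notes, and software version 3.1.0 per the file headers. Whether counting used strand is not given in the sources used here. The 8 genes, the lists and the tests were chosen with earlier results of these data known.

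Cells with at least 200 genes and at most 10% mitochondrial UMIs were kept, 20579 of 20897 barcodes for IL-27 and 11793 of 12276 for PBS, from 80121995 and 43501501 UMIs. Gates used raw UMIs. Doublets were left to the gates, and Scrublet calls per well (scanpy 1.11.5) were an alternative. Scrublet marked 1 of 5451 cells of PBS well 2, so it did not work there. UMIs were summed per gate and library and divided by all UMIs of the gate. Genes needed 10 CPM in the higher group and 20 UMIs in all. A gene was called between gates at 2-fold in both libraries and between libraries at 1.5-fold. Intervals are exact (Poisson for CPM, conditional binomial for ratios, Clopper-Pearson for shares) and cover counting error only. Those of ratios were run on counts simulated with that same error, which cannot show whether they hold where UMIs clump in single cells. Thinning drew 1000 UMIs per cell.

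Besides the 8 genes and list members, the text names the 20 highest and 10 lowest genes by the less extreme library ratio, among genes with 30 CPM in the higher gate of each library and 50 UMIs in all, without receptor, immunoglobulin, sex-linked, mitochondrial, ribosomal, haemoglobin and unnamed genes. It also names the 3 genes most like each of the 7 genes other than Foxp3, among genes reaching 20 CPM in a gate. Analyses used Python 3.11.15, numpy 2.4.6, scipy 1.17.1 and pandas 2.3.3. A few results that need withheld genes are not reported here. Alternatives are given in the closing section.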

Additional observations from a re-analysis of the deposited data

Results flagged for a closer look

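Gpr83 differed in sign between the libraries in Foxp3+ against Foxp3- CD4 T cells, with a log2 ratio of 1.16 in IL-27 and -0.051 in PBS, where 9 UMIs were counted in Foxp3+ cells. The PBS ratio of 0.965 has an interval of 0.417 to 1.99 and so shows no direction. The ratio was above 1 in every IL-27 well and in PBS well 1, and 0.453 in PBS well 2. Without the 4 PBS cells rich in markers of other cell types, a setting chosen after seeing the data, the PBS value was 0.09. With T cells lacking a coreceptor UMI included, also chosen after seeing the data, the PBS ratio was 1.74 (1.08 to 2.72), the same direction as in IL-27. The difference between the libraries was not tested.

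Ecm1 differed in sign between the CD4 gates, with a log2 ratio of IL-27 over PBS of -0.39 in Foxp3+ and 0.46 in Foxp3- cells. The interval of the ratio in Foxp3+ cells, 0.556 to 1.06, includes 1. The difference between the gates was not tested.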

How the results depend on the processing

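No paired analysis was possible because each treatment was 1 library. The share of Foxp3+ cells turned round with females only, to a ratio of 1.12, and lay between 0.443 and 1.12 when each well was left out in turn. Of the 7 genes compared between gates, 4 to 5 were called without each well and 3 with at least 2 Cd4 UMIs asked. Between libraries in Foxp3+ cells, 1 to 4 genes were called without each well (4 without PBS well 1), 3 with at least 2 Cd4 UMIs, 2 with females only, 0 with at least 2 Foxp3 UMIs and 0 when 50 CPM and 50 UMIs were needed. In Foxp3- cells 0 to 5 were called without each well (5 without PBS well 1), and 1 with at least 2 Cd4 UMIs, with thinned cells, with females only and with no filter on low genes. The cause of these changes was not tested. The share of all genes called is given above for some left-out wells between libraries, among them PBS well 2, which leaves females only. It is not given for the other settings in these counts, which are therefore no result about the genes as a group. Including T cells without a coreceptor UMI and leaving out cells rich in markers of other cell types were chosen after seeing the data, and kept these 4 results within 1.5 times. Of 521 values of single genes under the alternatives, 465 stayed within the interval of the reported value, 56 lay outside it and 0 reversed a called direction, and 6 more gave no ratio because a gate held no UMI of Lrrc32 or Gpr83.

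With 1 library per treatment, intervals hold no spread between mice. Detection of Foxp3 moved with depth, as thinning to 1000 UMIs gave Foxp3+ shares of 4.27% in IL-27 and 6.21% in PBS. Lrrc32 and Gpr83 rest on few UMIs in the PBS library, where no ratio inside their intervals is excluded.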

Other observations

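Il2ra in ILC2, lymphocytes without an antigen receptor that make type 2 cytokines, had 68 UMIs in 35 IL-27 cells and 19 UMIs in 32 PBS cells, a ratio of 3.74 (2.22 to 6.59). By well it was at 311, 184 and 1193 CPM in IL-27 and at 88.8 and 126 CPM in PBS. IL-27 well 3 gave 38 of the UMIs from 7 cells, and without it, a setting chosen after seeing the data, the IL-27 level was 240 CPM and the ratio 2.07 (1.13 to 3.89). Ikzf2 in plasmacytoid dendritic cells had 61.4 CPM in IL-27 and 20.9 CPM in PBS, with wells at 69.9, 67.3 and 47.1 CPM in IL-27 and 15.9 and 21.4 CPM in PBS, in a subset where 19.5% of genes had wells that did not overlap. Penk, which encodes the enkephalin precursor, varied between wells of 1 treatment in Foxp3+ cells, with 139, 738 and 429 CPM in the IL-27 wells and 313 and 1208 CPM in the PBS wells. These subsets and genes were singled out after their values were seen.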
